A study of Mus musculus with 18 samples.

Results

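The genes described here are 4 alpha tubulin genes (Tuba1a, Tuba1b, Tuba4a and Tuba8) and 6 beta tubulin genes (Tubb2a, Tubb2b, Tubb3, Tubb4a, Tubb5 and Tubb6) of the mouse. They were taken by name, 10 of the 54446 genes in the count table, and all 10 were among the 20635 genes that passed the filter on low counts. Spinal cord was taken from untreated mice aged 10 months, 3 in each of 6 genotypes. Total RNA depleted of ribosomal RNA was sequenced in 18 libraries, 1 per animal. The labels give no sex, litter, cord level or batch. Controls were C57BL/6 mice with no transgene (NTg), and all others were heterozygous knock-ins: hATXN2-Q22, human ATXN2 with 22 glutamines (Q22); hATXN2-Q33, with 33 glutamines (Q33); hTDP-43 alone (TDP-43); hTDP-43 with hATXN2-Q22 (the Q22 double knock-in); and hTDP-43 with hATXN2-Q33 (the Q33 double knock-in). ATXN2 and TDP-43 are RNA-binding proteins tied to amyotrophic lateral sclerosis (ALS), and a moderately lengthened glutamine tract in ATXN2 is a known risk factor for that disease. The deposited counts cover mouse genes, and the human sequences were not used here.

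Alpha and beta tubulin pair to form the subunit of microtubules, the tracks along which cargo moves in axons and the scaffold that holds axons and dendrites in shape. Mammals have several genes for each of the 2 proteins, called isotypes, which differ mostly at the acidic end of the protein, where enzymes add and remove amino acids on the microtubule surface. Tuba1a is known as the main alpha isotype of developing neurons, Tubb3 is widely used as a marker of neurons, Tubb4a is abundant in oligodendrocytes, and rare variants of human TUBA4A are linked to ALS.

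The last 30 coding bases are shown for the 3 genes that the results turn on, Tuba4a, Tubb3 and Tubb5, and for Tuba8, because isotypes differ most at this end. They were read 5′ to 3′ from the GENCODE vM21 transcripts (GRCm38), and the capitals mark the last amino acid codon and the stop codon.
Tuba4a: tatgaggacgaggatgagggagaaGAGTAG
Tuba8: gaagaagagaatgagggggaggaaTTTTAA
Tubb3: gaggaatcggaagcccaggggcccAAGTGA
Tubb5: ttcggagaggaggcagaagaggagGCCTAA
Many alpha tubulins are made with a tyrosine at this end, which enzymes remove and add back. Tuba4a ends with a glutamate codon and Tuba8 with a phenylalanine codon, so neither encodes a tyrosine there. Tubb3 ends with a lysine codon and Tubb5 with an alanine codon.

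The isotypes also differ in how well reads of 100 bases can tell them apart. Over the whole coding sequence Tuba1a and Tuba1b were 98.3% identical, and Tuba4a was 85.3% identical to Tuba1a. Of all windows of 100 bases along the transcript, 65.1% of those of Tuba1a and 69.5% of those of Tuba1b also occurred in a transcript of another gene, among them Tuba1c and several pseudogenes. For Tubb2a and Tubb2b, 96.5% identical in their coding sequence, the shares were 36.9% and 27.7%. For Tuba4a, Tuba8, Tubb3, Tubb4a, Tubb5 and Tubb6 the share was 0%. The deposited counts leave out read pairs that match several places, so levels of Tuba1a, Tuba1b, Tubb2a and Tubb2b are uncertain and likely too low, while the other 6 genes had no such window.

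Several properties of the libraries moved with genotype and stand beside the results below. Library totals ran from 16061359 to 30978678 counts. The share of mitochondrial ribosomal RNA lay between 23.4% and 28.7% in the Q33 double knock-ins and between 12.7% and 23.4% in the other 15 libraries. CPM below are counts scaled to library size with the TMM method, which sets factors so that most genes do not differ. On the log2 CPM scale, 6 caudal Hox genes (of the Hox10 and Hox11 groups) averaged 1.81 ± 1.53 for Q33 double knock-ins and -1.31 ± 0.589 for NTg (SD, n = 3 each). Expression of Y-linked genes above 10 CPM in sum was seen for 0 of 3 NTg mice, 3 Q22, 2 Q33 and 2 TDP-43 mice, and 1 mouse of either double knock-in. Mouse Atxn2 lay between 168 and 200.2 CPM and mouse Tardbp between 107 and 129.6 CPM over all libraries. Markers of neurons, oligodendrocytes and astrocytes were present in all libraries.

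Levels in NTg cords differed widely between isotypes. On the scale of CPM per kilobase of exon, which allows genes to be compared, the summed level was 792 ± 42.9 for the 6 beta genes and 118 ± 21.6 for the 4 alpha genes (SD, n = 3). The alpha sum rests largely on Tuba1a and Tuba1b, whose counts are likely too low, so these sums do not give the balance of alpha and beta transcript. Tubb4a stood highest at 468 ± 25.7 CPM per kilobase, followed by Tubb3 at 126 ± 17.4 and Tubb2a at 101 ± 3.01. Tubb5 at 61.8 ± 5.94 and Tuba1b at 57.7 ± 18.8 overlapped and could not be ordered. Tubb2b at 34.8 ± 3.99 and Tuba1a at 33.4 ± 3.76 overlapped in the same way. Tuba4a came next at 24.7 ± 1.63 CPM per kilobase, below every library of Tuba1a, and Tuba8 (2.02 ± 0.477) and Tubb6 (0.869 ± 0.065) were far lower. The undercounting of shared sequence touches the places of Tuba1a, Tuba1b, Tubb2a and Tubb2b in this order. Levels per kilobase also rest on the deposited summed exon length, which was 3701 bases for Tuba4a, while its transcript Tuba4a-202 has 2840. For Tuba1a both lengths are 1803 bases, so the place of Tuba4a below Tuba1a depends on the length used.

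**Figure D1:**
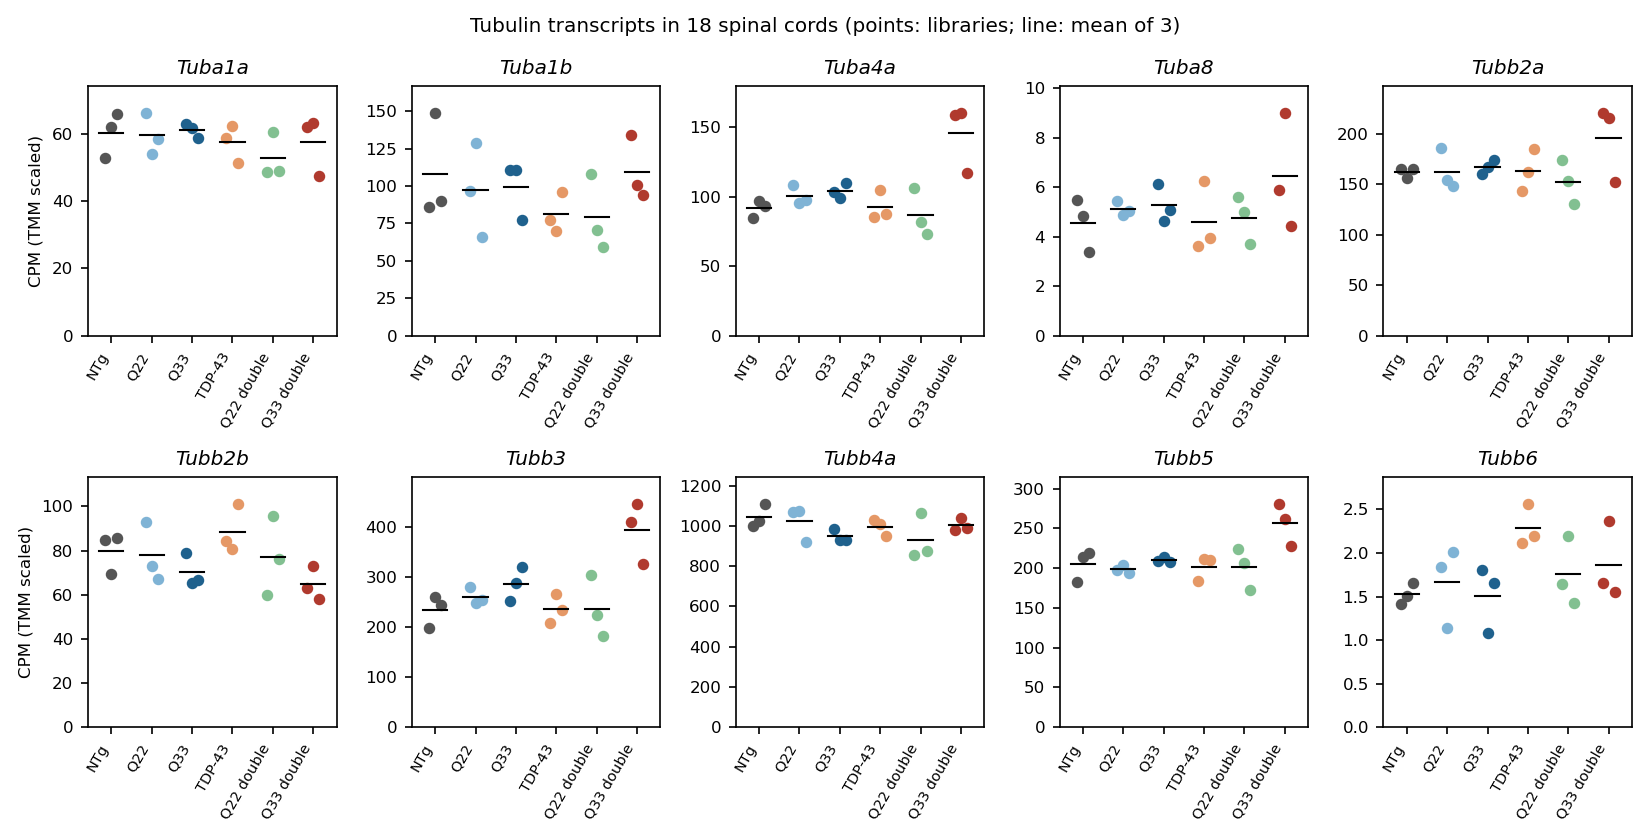
CPM of each of the 10 tubulin genes (vertical axis, starting at 0) in the 3 libraries of each genotype (points), with the mean as a line. In the panels of Tuba4a, Tubb3 and Tubb5 all 3 Q33 double knock-in libraries lie above all libraries of the other 5 genotypes, from 117 to 160.3, 326 to 446 and 228 to 280.4 CPM.

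Tuba4a was the alpha isotype called different between genotypes. It lies on chromosome 1 (75214228 to 75219865, minus strand, mm10), and with 1462 to 4228 counts per library its level was well measured. The 3 NTg libraries had 84.9, 96.7 and 92.9 CPM, and the Q33 double knock-in had 159, 160.3 and 117 CPM. Q22 had 108, 95.6 and 97.4 CPM, and Q33 had 103, 99.2 and 109.6. TDP-43 had 85.6, 105 and 87.5 CPM, and Q22 double knock-ins 106, 81.8 and 72.8. The lowest library of the Q33 double knock-in lay above the highest of the other 15, so that it overlapped with no other group. The other 5 genotypes overlapped among themselves except that every Q33 library lay above every NTg library. How many of all genes separate groups in this way was not counted, here or for the genes below. Such separation is therefore given as description only.

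Tubb3, the neuronal beta isotype on chromosome 8 (123411424 to 123422015, plus strand, mm10), was likewise highest in the Q33 double knock-in. NTg had 198, 260.2 and 245 CPM, and the Q33 double knock-in 411, 446 and 326 CPM. Q22 had 279.8, 248 and 255 CPM, and Q33 had 253, 289 and 319.7. TDP-43 had 209, 267 and 234 CPM, and Q22 double knock-ins 305, 225 and 182. The highest library outside the Q33 double knock-in, Q33 replicate 3 at 319.7 CPM, lay just under the lowest inside it at 326.

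Tubb5, a beta isotype of many cell types, lies on chromosome 17 (35833921 to 35838306, minus strand, mm10). It had 183, 214 and 219.6 CPM in NTg and 280.4, 262 and 228 CPM in the Q33 double knock-in. Q22 had 198, 204 and 194 CPM, and Q33 had 209, 214 and 208. TDP-43 had 184, 211 and 209.7 CPM, and Q22 double knock-ins 224, 206 and 173. The groups did not overlap, but the gap between 228 and 224 CPM was narrow. In all 3 genes Q33 double knock-in replicate 3 was the lowest of its group.

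Set against NTg, Q33 double knock-ins had 3 of the 10 tubulin genes called, all higher. Among all genes tested 12.1% were called, and 5.68% were called higher. Tuba4a rose 1.59-fold, a log2 fold change of 0.67 (SE 0.13, edgeR adjusted p = 0.0047), from 91.5 ± 6.03 to 145 ± 24.3 CPM (SD, n = 3). Tubb3 rose 1.68-fold (0.75, SE 0.16, edgeR adjusted p = 0.0075), from 235 ± 32.5 to 395 ± 61.6 CPM. Tubb5 rose 1.25-fold (0.32, SE 0.1, edgeR adjusted p = 0.044). The median log2 fold change was 0.28 over the 10 genes and -0.01 over all genes. In these bulk samples, more cells of a type and more RNA per cell cannot be told apart.

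The Q33 double knock-in was also compared with the Q22 double knock-in, which by its labels differs from it in tract length, and with TDP-43, which lacks the ATXN2 knock-in. These comparisons share the 3 Q33 double knock-in libraries with the comparison against NTg and are not independent of it. The same 3 genes, Tuba4a, Tubb3 and Tubb5, were called higher in each. Against the Q22 double knock-in the log2 fold changes were 0.74 (SE 0.13, edgeR adjusted p = 0.0022) for Tuba4a, 0.73 (SE 0.16, 0.0075) for Tubb3 and 0.35 (SE 0.1, 0.027) for Tubb5. Against TDP-43 they were 0.65 (SE 0.13, edgeR adjusted p = 0.0056), 0.74 (SE 0.16, 0.0084) and 0.35 (SE 0.1, 0.03). The shares of all genes called were 12.8% and 12.6%, with 6.67% and 5.98% called higher. The median of the 10 genes was 0.36 and 0.31, beside -0.01 and -0.02 over all genes. Without replicate 3 of the Q22 double knock-in, Tubb3 missed the threshold against that group (0.57, edgeR adjusted p = 0.051).

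**Figure D2:**
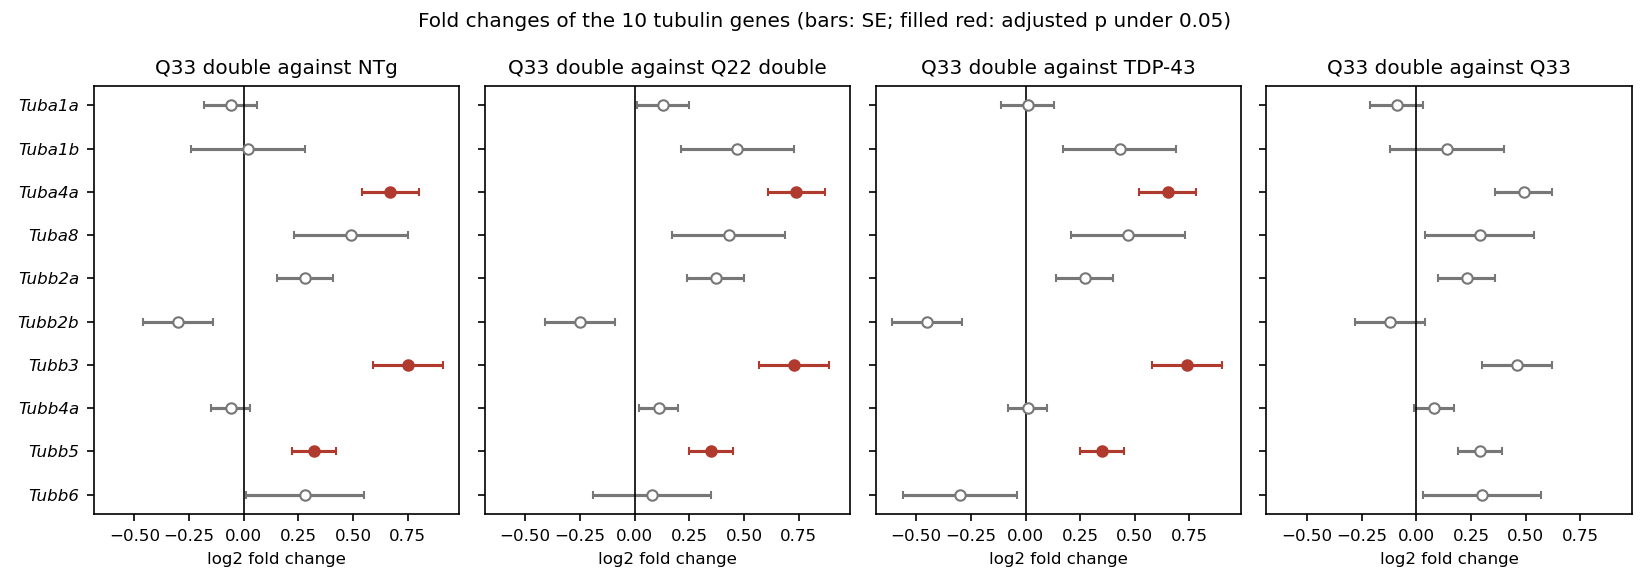
Log2 fold changes of the 10 tubulin genes (points, with bars of 1 SE) in the Q33 double knock-in against NTg, the Q22 double knock-in, TDP-43 and Q33. Filled red points have an edgeR adjusted p under 0.05 (Tuba4a, Tubb3 and Tubb5 in the first 3 panels), and in the panel against Q33 no point is filled, although Tuba4a stands at 0.49.

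Tubb5 was the least firm of the 3. Its call against NTg was lost when any of the 3 NTg libraries or Q33 double knock-in replicate 1 or 2 was left out (edgeR adjusted p from 0.06 to 0.2), while Tuba4a and Tubb3 kept theirs in all 6 such fits. Its calls against the Q22 double knock-in and TDP-43 were each lost in 4 of 6 such fits, without replicate 1 or 2 of their common group, without Q22 double knock-in replicate 2 or 3, or without TDP-43 replicate 1 or 3 (edgeR adjusted p from 0.064 to 0.17). Scaling mattered as well. When library totals replaced TMM scaling, the median of all genes moved to -0.25 in this comparison, to the same value against the Q22 double knock-in and TDP-43, and to -0.15 against Q33. Against NTg 4146 genes were then called, 206 of them higher, in place of 2491 and 1173. Tuba4a was then at 0.42 (edgeR adjusted p = 0.012) and Tubb3 at 0.51 (0.017), whereas Tubb5 was at 0.08 (0.56), and Tuba1a (-0.31, 0.042), Tubb2b (-0.55, 0.024) and Tubb4a (-0.3, 0.037) were called lower. With totals that left out the mitochondrial ribosomal RNA genes, a choice made after the data were seen, 2458 genes were called, 670 higher. With them Tuba4a was at 0.58 (edgeR adjusted p = 0.005), Tubb3 at 0.66 (0.009) and Tubb5 at 0.24 (0.12), and none of the 10 was called lower. Against TDP-43, a fit of these 2 groups alone left Tuba4a at 0.65 but just outside the threshold (edgeR adjusted p = 0.052).

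Against Q33, the genotype that carries the same ATXN2 form without TDP-43, 0 of the 10 genes were called by edgeR. Of all genes 0.892% were called, and 3650 of 20635 had an unadjusted p under 0.05. Tuba4a was at 0.49 (SE 0.13, edgeR adjusted p = 0.072), Tubb3 at 0.46 (SE 0.16, 0.14) and Tubb5 at 0.29 (SE 0.1, 0.14). Each had all 3 libraries above those of Q33, and the share of all genes that did so was not counted. DESeq2 called 1059 genes in this comparison and, of the 10, Tuba4a alone (0.49, adjusted p = 0.012). Without Q33 double knock-in replicate 3, edgeR called Tuba4a too (0.62, adjusted p = 0.027).

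The knock-ins taken singly, and the Q22 double knock-in, gave no call for any tubulin gene. In edgeR 0% of all genes were called when Q22, Q33 or TDP-43 was set against NTg, Q33 against Q22, or the Q22 double knock-in against either TDP-43 or Q22. In the Q22 double knock-in against NTg 0.00969% were called. Unadjusted p-values under 0.05 numbered between 442 and 1502 of 20635 genes in these 7 comparisons, and DESeq2 called 0 of the 10 tubulin genes in each. Tuba4a was at 0.13 (SE 0.13) in Q22, 0.18 (SE 0.13) in Q33, 0.02 (SE 0.13) in TDP-43 and -0.07 (SE 0.13) for Q22 double knock-ins, all against NTg on the log2 scale. Tubb3 was at 0.15, 0.29, 0.02 and 0.02 in the same order, each with an SE of 0.16.

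Whether the effect of hATXN2 differed with hTDP-43 was read from interaction terms, and no tubulin gene was called in the main fit. Without the filter on low counts, Tuba1b alone of the 10 was called for Q33 and TDP-43, with 533 of all genes called. For Q33 and TDP-43 the term was 0.47 (SE 0.19, edgeR adjusted p = 0.31) for Tuba4a, 0.44 (SE 0.23, 0.43) for Tubb3 and 0.31 (SE 0.14, 0.36) for Tubb5. edgeR called 0% of genes for this term, with 2674 at an unadjusted p under 0.05, and DESeq2 called 120 genes and none of the 10. For Q22 and TDP-43 Tuba4a was at -0.22 (SE 0.19, edgeR adjusted p = 0.94), with 0% of genes called. A contrast added after the data were seen set the tract length difference with hTDP-43 against that without it. Of all genes 0.344% were called, and Tuba4a was at 0.69 (SE 0.19, edgeR adjusted p = 0.1) and Tubb3 at 0.6 (SE 0.23, 0.22). In a test of any difference among the 6 genotypes, which called 4.16% of genes, Tuba4a (edgeR adjusted p = 0.016) and Tubb3 (0.032) were called and Tubb5 (0.12) was not. Both calls were lost without Q33 double knock-in replicate 1 or 2, and that of Tubb3 also without Q22 replicate 3 or replicate 2 of the Q22 double knock-in.

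The other alpha isotypes were called in none of the comparisons above. Tuba1a (chromosome 15, 98949837 to 98953703, minus strand, mm10) ranged from 47.3 to 66.2 CPM over the 18 libraries and was at -0.06 (SE 0.12, edgeR adjusted p = 0.79) in the Q33 double knock-in against NTg. Tuba1b, its neighbour on the same strand (98931425 to 98934565), ranged from 59.6 to 149 CPM and spread widely within genotypes. NTg alone had 85.8, 149 and 89.9 CPM, and its fold change against NTg of 0.02 carried an SE of 0.26. The within-genotype SD of log2 CPM was 0.37 for Tuba1b, 0.16 for Tuba1a and 0.18 for Tuba4a, beside a median of 0.24 over all genes tested, whatever their level. Tuba8 (chromosome 6, 121210696 to 121226854, plus strand), a minor isotype, ranged from 3.38 to 9.01 CPM on 62 to 224 counts, and was at 0.49 (SE 0.26, edgeR adjusted p = 0.22). Of these genes Tuba1a was called lower against NTg under library totals, as given above. Tuba1b was called higher against the Q22 double knock-in and TDP-43 only when the filter on low counts was dropped. In that setting it was also called in the Q33 interaction and in the test of any difference.

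Among the other beta isotypes, Tubb4a was the steadiest and Tubb2b the exception in sign. Tubb4a (chromosome 17, 57080066 to 57087782, minus strand, mm10) stayed between 855 and 1108 CPM, with a within-genotype SD of 0.1 on the log2 scale. Of the genes tested 8.58% had a lower SD, but 99.8% had a lower mean CPM, and genes of like level were not compared. Every Q33 library lay below every NTg library, without a call (-0.14, edgeR adjusted p = 0.74). It was at -0.06 (SE 0.09, edgeR adjusted p = 0.74) in the Q33 double knock-in against NTg. Tubb2a (chromosome 13, 34074274 to 34078007, minus strand) ranged from 131 to 221 CPM and was at 0.28 (SE 0.13, edgeR adjusted p = 0.18), with 2 Q33 double knock-in libraries above all others and replicate 3 among them. Without that replicate Tubb2a was called higher against NTg, the Q22 double knock-in and TDP-43. Against the Q22 double knock-in it was also called higher by DESeq2, without the filter on low counts, and without replicate 1 of that group. Tubb2b, next to it (34126748 to 34130466, minus strand), had 84.4, 80.5 and 101 CPM in TDP-43 and 63.2, 73.2 and 57.9 CPM in the Q33 double knock-in. These 2 groups did not overlap, and the fold change of -0.45 (SE 0.16) missed the threshold in edgeR (adjusted p = 0.063) but passed it in DESeq2 (-0.44, 0.036) and with library totals (-0.69, 0.0071). It also passed in edgeR without TDP-43 replicate 2 (-0.51). Tubb2a and Tubb2b share much of their sequence, so that reads lost to ambiguity could come from either.

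Tubb6, a low isotype better known from muscle and other tissues, lies on chromosome 18 (67390717 to 67402748, plus strand, mm10) and had 23 to 76 counts per library. It ranged from 1.08 to 2.56 CPM and was highest in TDP-43, where all 3 libraries lay above all 3 of NTg. That difference of 0.59 (SE 0.27) had an unadjusted p of 0.042 and an edgeR adjusted p of 1. In the Q33 double knock-in against NTg Tubb6 was at 0.28 (SE 0.27, edgeR adjusted p = 0.53).

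The share of each gene among the members of its family was described as well, without a test. The sums hold only the 4 alpha and 6 beta genes, so Tubb4b, which had 229 ± 36.6 CPM in NTg and 349 ± 46.9 for Q33 double knock-ins, is in neither the beta shares nor the ratio below. The alpha shares rest on Tuba1a and Tuba1b, whose counts are uncertain, and on the summed exon length, which for Tuba4a exceeds that of its transcript. Divided by exon length, Tuba4a made up 21.3% ± 2.5 of the 4-gene alpha sum in NTg and 29.6% ± 1.86 for Q33 double knock-ins (SD, n = 3). Its share in the other 4 genotypes averaged between 24 and 24.5%. Single Q33 double knock-in libraries had from 28.3% to 31.8%, above the highest of the other 15 libraries, 28.1% in Q33. Tubb3 made up 15.8% ± 1.73 of the 6-gene beta sum in NTg, 19.7% ± 2.13 in Q33 and 23.6% ± 1.79 in the Q33 double knock-in. Its lowest share in the Q33 double knock-in, 21.6%, lay below the highest in the Q22 double knock-in (21.8%) and Q33 (21.7%). Tubb4a, the most abundant isotype, took 59.1% ± 0.942 in NTg and 50.8% ± 3.64 in the Q33 double knock-in, and Tubb2b took 4.41% ± 0.559 and 3.17% ± 0.164. The beta sum was 889.9 ± 74.4 CPM per kilobase in the Q33 double knock-in, and the ratio of the beta to the alpha sum was 6.78 ± 0.693 there and 6.85 ± 1.11 in NTg. Shares do not depend on library scaling.

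**Figure D3:**
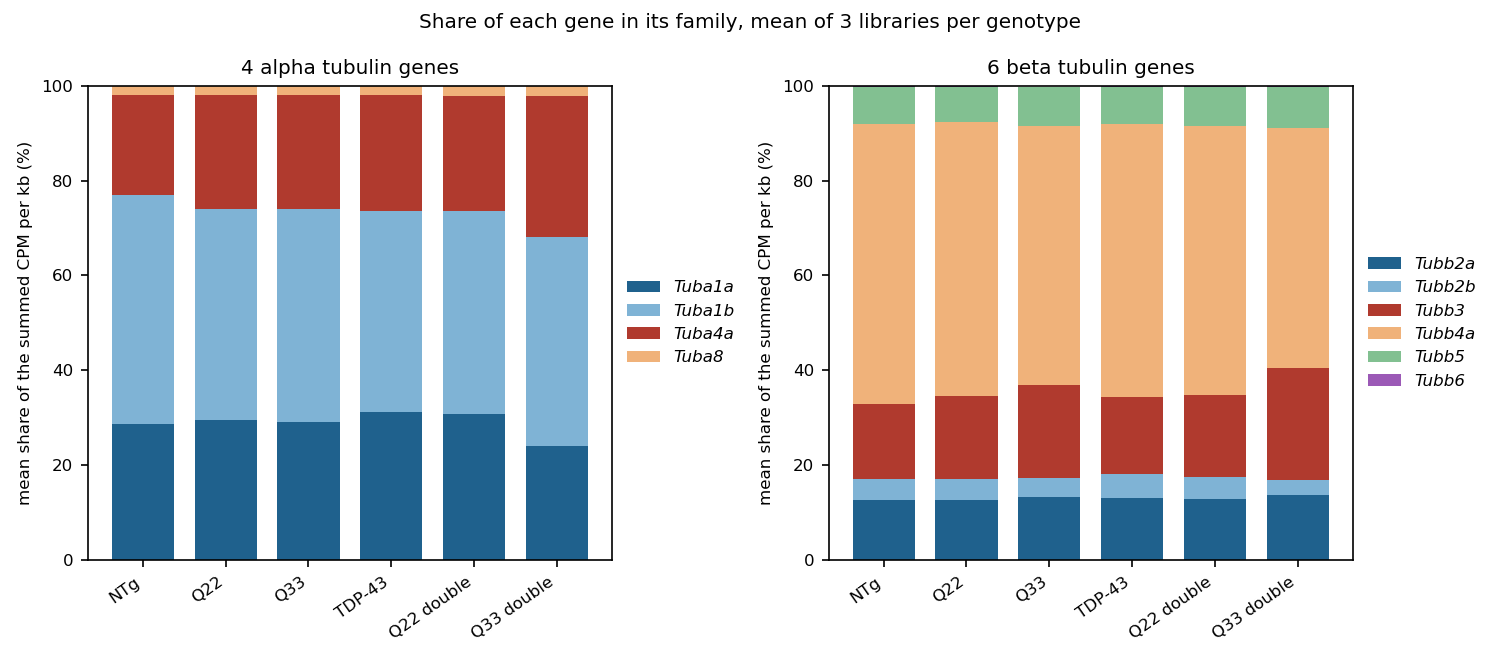
Mean share (percent, n = 3 libraries per genotype) of each alpha gene in the summed alpha CPM per kilobase and of each beta gene in the beta sum. The Tuba4a band widens from 21.3% in NTg to 29.6% in the Q33 double knock-in, and the Tubb3 band from 15.8% to 23.6%.

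Within the family, genes differed in how closely they followed Tuba4a across the 18 libraries. Pearson correlations of log2 CPM describe this, over points of which each 3 share a genotype. Tubb3 had an r of 0.97 with Tuba4a (Spearman 0.96), and 0.92 after each genotype's mean was removed. Tubb5 had 0.89 (0.79 within genotypes), Tubb2a 0.8 (0.75) and Tuba8 0.7 (0.66). Spearman values of these were lower, at 0.68, 0.59 and 0.59. Tuba1b had 0.47 (0.38 within genotypes), Tuba1a 0.3 (0.48), Tubb6 0.17 (0.39) and Tubb4a 0.09 (-0.02), and Tubb2b had -0.49. Tubb2b and Tubb3 ran opposite ways, with an r of -0.55, but of -0.24 within genotypes. Within genotypes Tubb2b had -0.16 with Tuba4a, -0.07 with Tubb5 and 0.31 with Tubb2a.

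**Figure D4:**
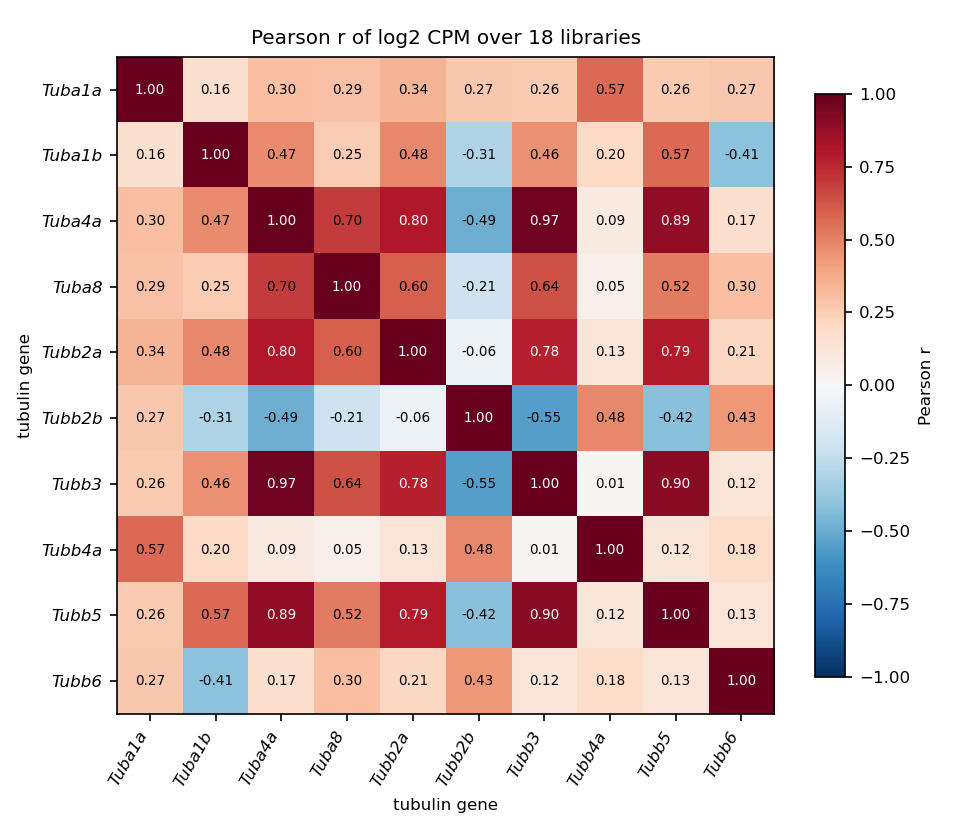
Pearson r of log2 CPM between each pair of the 10 tubulin genes over 18 libraries (colour and printed value, from -1 in blue to 1 in red). Tuba4a, Tubb3, Tubb5 and Tubb2a form a block with r from 0.78 to 0.97. Tubb2b has negative values with each of them, from -0.06 with Tubb2a to -0.55 with Tubb3.

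The 5 genes most like Tuba4a, by Pearson r over the 18 libraries among 16277 genes whose mean CPM reached 1, were Snn (0.98), Tubb3 (0.97), Enho (0.96), Cs (0.96) and Serpine2 (0.96). Snn, which encodes stannin, had 117 ± 6.43 CPM in NTg and 169 ± 17.3 in the Q33 double knock-in, and its r with Tuba4a was 0.98 within genotypes as well. Cs, citrate synthase of the mitochondrial citric acid cycle, had 128 ± 9.17 and 160.4 ± 13.5 CPM. Serpine2, a secreted protease inhibitor also called protease nexin, had 138 ± 9.28 and 185 ± 13.2 CPM, and Enho, which encodes adropin, had 27.2 ± 1.64 and 40.6 ± 9.46 CPM. Under library totals 3 of these 5 remained among the first 5.

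Tuba4a also moved with properties of the libraries. Its Pearson r over the 18 libraries was 0.79 with the share of mitochondrial ribosomal RNA, 0.86 with the summed CPM of 8 pan-neuronal markers, 0.81 with 7 motor neuron markers and 0.6 with the caudal Hox genes. Within genotypes the values were 0.44, 0.51, 0.64 and 0.47. With 8 oligodendrocyte markers it was -0.67 (-0.37 within genotypes). The summed pan-neuronal markers ran from 6017 to 7743 CPM in the Q33 double knock-in, against 4382 to 5176 in NTg. Most of this sum is 1 gene, Snap25, at 4848 ± 780.2 CPM in the Q33 double knock-in and 3152 ± 397 in NTg. The r with the sum thus rests largely on Snap25. In the Q33 double knock-in against NTg 5 of the 8 were called higher and 1, Syt1, lower. The summed oligodendrocyte markers ran from 9952 to 12409.8 CPM against 13573 to 15205 in NTg, with 0 of 8 called higher and 2 lower. Of 8 dorsal horn markers 0 were called higher and 4 lower (median -0.92), and of 6 astrocyte markers 0 and 3 (median -0.26). Under library totals the pan-neuronal counts were 2 higher and 1 lower, and 6 oligodendrocyte, 5 dorsal horn and 3 astrocyte markers were lower. The medians were then 0.21, -0.51, -1.16 and -0.49 in that order, beside -0.25 over all genes. Of all 20635 genes 4146 were called in that setting, 206 of them higher. The caudal Hox mean was 3.51 in replicate 1 of the Q22 double knock-in, 2.71 in Q33 replicate 2 and 1.97 in Q33 replicate 3. These lie within the range of the Q33 double knock-in (0.62 to 3.54), and Tuba4a was 106, 99.2 and 109.6 CPM there. In replicates 2 and 3 of the Q22 double knock-in the Hox mean was -1.92 and -1.67, with Tuba4a at 81.8 and 72.8 CPM. In Q33 replicate 1 the Hox mean was -2.3, with Tuba4a at 103 CPM. The part of cell makeup, cord level and mitochondrial ribosomal RNA in the tubulin differences was not tested.

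**Figure D5:**
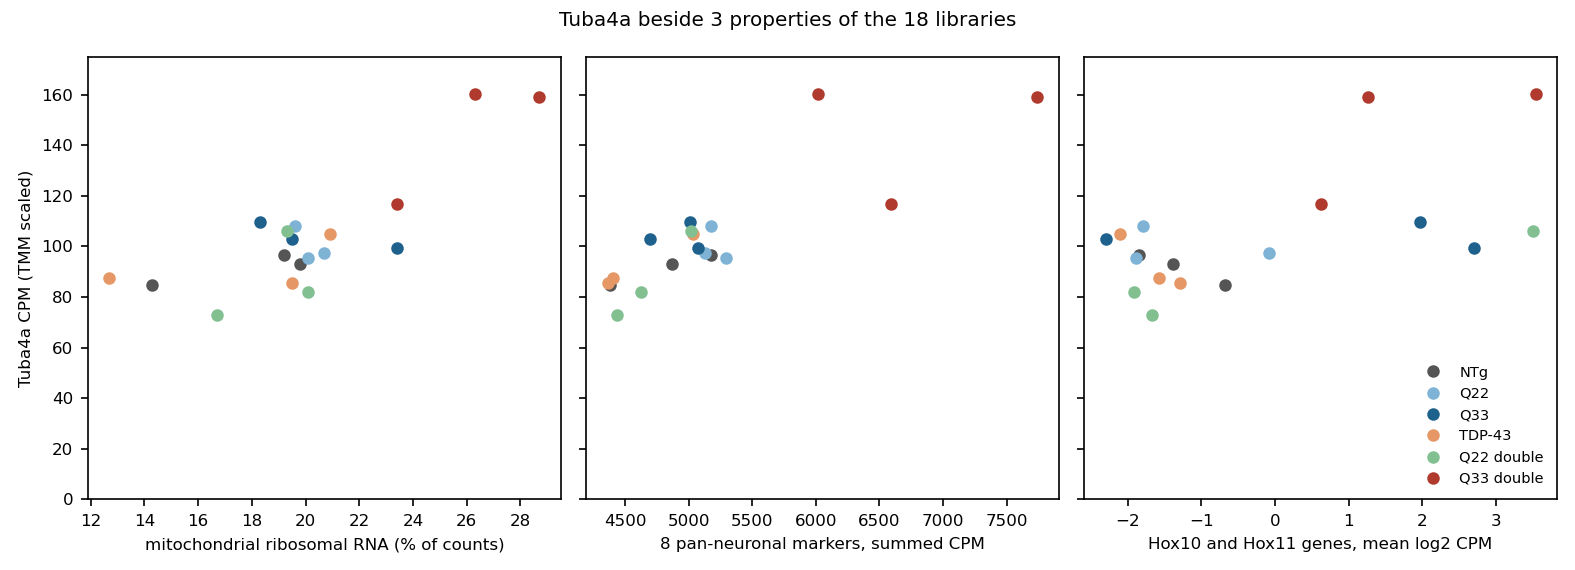
Tuba4a CPM (vertical axis, from 0) in each of 18 libraries against the percent of counts in mitochondrial ribosomal RNA, the summed CPM of 8 pan-neuronal markers (mostly Snap25) and the caudal Hox mean (log2 CPM). The Q33 double knock-in (red) lies at or above all others in the first panel, at 23.4% or more, and above them in the second, at 6017 CPM or more. In the Hox panel 3 libraries of other genotypes reach its range.

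Other genes of tubulin biology are given as counts, with medians, in the Q33 double knock-in against NTg, where 12.1% of all genes were called. Of 10 further tubulin genes 7 were tested, and 2 rose. Tubb4b, a beta isotype of broad expression and of cilia, rose from 229 ± 36.6 to 349 ± 46.9 CPM (0.61, SE 0.13, edgeR adjusted p = 0.0067). Tubg1, the gamma tubulin that nucleates microtubules, rose from 35.7 ± 0.499 to 49.1 ± 4.86 CPM (0.46, SE 0.11, 0.013). Under library totals 1 of the 7 was called higher. The same 2 genes rose against the Q22 double knock-in (0.63 and 0.49) and against TDP-43 (0.56 and 0.4). Tuba3a, Tuba3b and Tubal3 had at most 3 counts in all and were not tested.

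Genes of tubulin folding were counted next. New tubulin chains pass from prefoldin to the ring-shaped chaperonin CCT and then to cofactors that join alpha to beta. Of 22 such genes 6 were called higher, 0 lower and the rest not called against NTg, with a median of 0.34. Tbca, the cofactor that binds beta tubulin, rose from 24.5 ± 0.718 to 39.3 ± 5.57 CPM (0.68, SE 0.14, edgeR adjusted p = 0.0067). The CCT subunit genes Cct7 (0.49, SE 0.1, 0.0066) and Cct5 (0.49, SE 0.11, 0.008) rose as well. Against the Q22 double knock-in 8 of 22 were higher (median 0.31) and against TDP-43 4 of 22 (median 0.27). Library totals ended most of these calls: 2 were higher and 2 lower against NTg (median 0.09), 1 was higher against the Q22 double knock-in (0.07) and 0 against TDP-43 (0.04), beside -0.25 over all genes. Of 3 genes for the decay of tubulin mRNA when free tubulin is in excess, 0 were called against NTg, and Scaper fell by 0.35 against the Q22 double knock-in (SE 0.1, edgeR adjusted p = 0.031).

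Of 24 tested enzymes that modify tubulin 5 were higher and 1 lower, with a median of 0.12. Ttl, the ligase that adds tyrosine back to alpha tubulin, rose from 67.9 ± 3.12 to 92.7 ± 9.26 CPM (0.45, SE 0.11, edgeR adjusted p = 0.014). Ttll12 (0.56, SE 0.11, 0.0054) and Ttll11, a polyglutamylase (0.59, SE 0.14, 0.01), rose too. Of the genes for the enzyme that removes the tyrosine, none was called: Vash1 was at -0.12 (SE 0.22), Vash2 at 0.13 (SE 0.15) and their partner Svbp at 0.06 (SE 0.46). Against the Q22 double knock-in 4 were higher and 0 lower, and against TDP-43 4 were higher, among them the deglutamylase gene Agtpbp1 (0.31), and 2 lower, Ttll4 (-0.43) and Atat1 (-0.42), the acetyltransferase of alpha tubulin. The gene lower against NTg was Ttll3 (-0.72, SE 0.2, edgeR adjusted p = 0.027), a glycylase. Under library totals 0 were higher and 6 lower against NTg, while 4146 of all 20635 genes were called, 206 of them higher. The median of the group was then -0.12 beside -0.25 over all genes. Calls of this group against NTg thus moved with the scaling as those of all genes did, and its median stayed above that of all genes there. Against the Q22 double knock-in and TDP-43 its median under library totals was -0.28 and -0.25, beside -0.25 over all genes in both.

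Of proteins that bind microtubules, 0 of 16 genes were higher and 1 lower against NTg, and none of Mapt (-0.17, SE 0.09), Map2 (0.16, SE 0.12) and Map1b (0.39, SE 0.22) was called. Under library totals 0 were higher and 4 lower against each of NTg, the Q22 double knock-in and TDP-43, where the median of all genes was -0.25. The gene that fell was Map7, which recruits kinesin to microtubules, from 219.9 ± 7.45 to 132 ± 20.5 CPM (-0.74, SE 0.12, edgeR adjusted p = 0.0011). It was lower too against the Q22 double knock-in (-0.57), TDP-43 (-0.78) and Q33 (-0.62, SE 0.12, edgeR adjusted p = 0.02). Of 4 stathmin genes, whose proteins bind free tubulin, Stmn2 (0.58, SE 0.16, edgeR adjusted p = 0.028) and Stmn3 (0.76, SE 0.16, 0.0061) rose against NTg. Under library totals 1 stathmin gene was higher and 1 lower. Stmn2, known as a target of TDP-43 in human neurons, went from 202 ± 42.9 to 302 ± 33.7 CPM.

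Among genes of microtubule ends and nucleation 2 of 16 were higher, Clasp1 (0.31, SE 0.09, edgeR adjusted p = 0.038) and Mapre1 (0.23, SE 0.07, 0.046), and the median was 0.06. Of 29 motor genes 3 were higher, Dync1i1 of dynein (0.56), Klc2 of kinesin (0.63) and Actr1b of dynactin (0.41), with a median of 0.19. Against the Q22 double knock-in 2 were called, the dynactin genes Dctn3 (0.69, SE 0.2, edgeR adjusted p = 0.032) and Dctn5 (0.4, SE 0.12, 0.039), and against TDP-43 0 were. Of 8 severing genes 1 was lower, Katnal2 at -0.98 (SE 0.3, edgeR adjusted p = 0.04), on 3.21 ± 0.493 and 1.64 ± 0.618 CPM. Against NTg the counts of ends, motor and severing genes lie near the 12.1% called among all genes, so they do not set these groups apart. Of 5 neurofilament genes Ina rose (0.57, SE 0.12, edgeR adjusted p = 0.0071), while Nefl at 0.83 (SE 0.28, 0.056) missed the threshold, and the median was 0.83. Under library totals 0 genes of ends, 0 motor genes and 0 severing genes were higher, and 1, 1 and 3 were lower. In that setting the median of all genes was -0.25.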

How the data were processed

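Counts of read pairs per gene were used as the authors deposited them. Per the file headers, featureCounts 1.6.1 assigned paired reads to exons of the GENCODE vM19 annotation by gene, by strand (-s 1), leaving out chimeric pairs and pairs that match several places or genes. The submitters' processing notes give the mm10 build and name TopHat2, DESeq2, featureCounts and Trim Galore 0.4.1. The deposited exon length served for levels per kilobase. Columns were matched to animals through the labels, with 0 columns of other samples. A gene symbol was found for 54409 of 54446 identifiers (99.93%), from GENCODE vM21.

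Genes were filtered with filterByExpr, which left 20635, and scaled by TMM in edgeR 4.0.16 (limma 3.58.1, R 4.3.3). A quasi-likelihood model was fitted to all 18 libraries at once, without covariates, and tested two-sided with Benjamini-Hochberg adjustment over the genes tested, at a threshold of 0.05. Library totals of 16061359 to 30978678 counts set the precision. Replicate numbers follow accession order and pair nothing. Named genes were all 10 tubulin genes, up to 3 called genes per list with the smallest p, the 5 genes with the highest r with Tuba4a, and further examples chosen after their values were seen. Members and lists were chosen with earlier results of these data known. The tract contrast and totals without mitochondrial ribosomal RNA were added after the data were seen. Alternatives were library totals, RLE scaling, no filter, DESeq2 1.42.0, fits of the compared groups alone and leaving out each library.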

Additional observations from a re-analysis of the deposited data

How the results depend on the processing

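Values of the 10 tubulin genes under other settings were compared for the Q33 double knock-in against each of 4 groups and for the Q33 interaction. Of them 614 kept their side of the threshold, 22 newly passed it, 24 no longer did, and none that passed changed sign. The 614 include values that passed in neither setting, so they do not measure how firmly calls held. Only Tuba4a, Tubb3 and Tubb5 were called in the main fit and could lose a call, and most of the 24 losses fell on Tubb5. Library totals in place of TMM scaling called 5 of the 10 tubulin genes in the Q33 double knock-in against NTg (Tuba4a and Tubb3 higher, Tuba1a, Tubb2b and Tubb4a lower) and 1, Tuba4a, in the test of any difference. Over all genes they called 4146 against NTg, 4084 against TDP-43, 396 against Q33, 1546 in the test of any difference and 0 in the Q22 double knock-in against NTg, and 3 of the 5 genes most like Tuba4a stayed in that place. RLE scaling and totals free of mitochondrial ribosomal RNA each called 1 gene in the Q22 double knock-in against NTg. Without the filter on low counts, 5 of the 10 tubulin genes were called against the Q22 double knock-in, 5 against TDP-43 and 2 against Q33. In that setting 1, Tuba1b, was called in the Q33 interaction and 5 in the test of any difference. The counts over all genes were then 238, 408, 84 and 39 against NTg (Q22, Q33, TDP-43 and Q22 double knock-ins), 70 in Q33 against Q22, 49 and 146 in the Q22 double knock-in against TDP-43 and Q22, 1147 against Q33, 193 and 533 in the Q22 and Q33 interactions and 3012 for any difference. DESeq2 called 2, 1 and 5 genes in Q22, Q33 and TDP-43 against NTg, 1 in Q33 against Q22, 1059 against Q33 (1 tubulin gene), 2 and 120 in the interactions and 2465 for any difference. Fits of the compared groups alone called 6 genes in Q22 against NTg, 0 in the Q22 double knock-in against NTg, and 1534, 1383, 256 and 96 in the Q33 double knock-in against NTg, the Q22 double knock-in, TDP-43 (1 tubulin gene, Tubb3) and Q33. Not divided by length, the share of Tuba4a was 35% in NTg and 45.6% in the Q33 double knock-in, and that of Tubb3 13.6% and 20.5%. Leaving out each library in turn gave 602 to 3048 genes and 2 to 4 tubulin genes against NTg, 719 to 3152 and 1 to 4 against the Q22 double knock-in, 552 to 3431 and 2 to 4 against TDP-43, 7 to 395 and 0 to 1 against Q33, 0 to 48 in the Q33 interaction, and 65 to 1560 and 0 to 2 for any difference. It gave 0 to 3 genes in TDP-43 against NTg and 0 to 1 in the Q22 double knock-in against NTg, Q22 and TDP-43. The lowest counts of these first 4 comparisons and of any difference came without Q33 double knock-in replicate 1, which has the largest library. Counts against NTg also fell without NTg replicate 1 (1314) or 3 (993) or Q33 double knock-in replicate 2 (1559), those against TDP-43 without its replicate 1 (1176) or 3 (744), those against the Q22 double knock-in without its replicate 2 (1394) or 3 (797), and those against Q33 without its replicate 1 (21), 2 (31) or 3 (102). The cause was not tested. No paired analysis was possible because the replicate numbers were given in accession order and the labels pair no animals. Depth limits Tubb6 and Tuba8, which had 23 to 76 and 62 to 224 counts.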
